A study of Mus musculus with 12 samples.

Results

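Mir-221 and Mir-222 are 2 microRNA genes that lie side by side on the mouse X chromosome, and their mature arms are described here in the hippocampus of grandsons of exercised and of sedentary mice. The members are the rows of the deposited table whose first name is Mir-221 followed by a paralogue number, which gave 4 of 513 miRNA arms. The table follows MirGeneDB names, in which Mir-221-P1 stands for Mir-221 and Mir-221-P2 for Mir-222. That pairing comes from the naming scheme and not from the table. An asterisk marks the passenger arm of a hairpin. Small RNA was sequenced from 12 male wild-type C57BL/6J mice, 1 library per mouse. The exercised lineage holds 6 mice whose paternal-line grandfathers (F0) had exercised, and the sedentary lineage holds 6 mice whose paternal-line grandfathers had been sedentary. All 12 are F2 animals. Exercise is recorded for the grandfathers alone, and the mice's age is not stated. The submitters' library codes begin with 1 of 4 stems, each shared by 3 mice: R31 or R41 for exercised-lineage mice, S11 or S41 for sedentary-lineage mice. What a stem means is not stated, so mice that share one may be related. The estimated correlation within stems over all tested arms was -0.0041, and with stem as a random block the limma adjusted p of the 4 arms lay between 0.631 and 0.664 with unchanged folds.

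A microRNA hairpin is cut into a duplex, and 1 strand, the guide, is loaded into an Argonaute protein and pairs with messenger RNAs chiefly through its seed, the bases from position 2 to position 8. The other strand, the passenger, is mostly degraded. Mir-221 and Mir-222 are known as a co-transcribed pair whose 3p guides repress the cell cycle inhibitor Cdkn1b (p27) and the receptor tyrosine kinase Kit. They are best known from endothelium, vascular smooth muscle and tumours, including glioma, and in neuron-like cells they are known to be induced by growth factor signalling through ERK.

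The sequences are shown because the seed is what makes the pair a family. They are RefSeq entries on GRCm38.p6, written 5′ to 3′ with the seed in capitals.
mmu-miR-221-3p: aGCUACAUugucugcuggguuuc
mmu-miR-222-3p: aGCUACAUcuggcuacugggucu
mmu-miR-221-5p: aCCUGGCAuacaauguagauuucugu
Both guides are 23 bases long, share their first 8 bases and are identical at 11 of 23 positions when set side by side without gaps. The guide seed was found in 3 of 1679 mature mouse miRNA names in the RefSeq table, the third being mmu-miR-1928, which matched 0 rows of the deposited table. The 5p arm of Mir-221 has another seed, held by 1 name, its own. No separate entry was matched for miR-222-5p.

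The hairpins place the arms, with the mature arms listed by RefSeq in capitals.
Mir221 hairpin: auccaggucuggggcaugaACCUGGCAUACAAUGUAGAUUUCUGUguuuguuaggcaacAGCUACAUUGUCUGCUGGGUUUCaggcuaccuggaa
Mir222 hairpin: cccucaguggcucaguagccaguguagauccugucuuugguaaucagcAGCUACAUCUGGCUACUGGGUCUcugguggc
In the GENCODE annotation of mm10, Mir221 (ENSMUSG00000065422.1) lies at chrX:19146294-19146388 and Mir222 (ENSMUSG00000065471.1) at chrX:19146893-19146971, both on the minus strand. From the start of the first to the end of the second, the hairpins span 678 bases. No other annotated gene overlaps either hairpin, so both are intergenic. The nearest annotated gene to one side is Gm14636, a noncoding transcript on the same strand, 10009 bases away, and to the other the pseudogene Gm5383, 203065 bases away.

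Libraries held 6862623 to 10219856 reads on miRNA arms, counting the smallest step between values in a library as 1 read. Values are normalized reads, meaning that the reads were divided by a size factor set for the whole library. Each read covers a whole arm, so reads per arm carry no length factor. Neuronal miRNAs (16 arms of Mir-9, Mir-124, Mir-128, Mir-132, Mir-138 and Mir-218), which mark neurons and not the hippocampus as such, held 34.3% to 40.1% of the values in exercised and 35.3% to 39.1% in sedentary lineage libraries. Choroid plexus miRNAs (6 arms), markers of tissue beside the hippocampus, held 0.363% to 2.34% (median 0.532%) and 0.357% to 1.85% (median 1.03%), with the highest share in F2_exercised replicate 1. That library also had the lowest neuronal share and the lowest sum of values.

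Both guides were of middling to high abundance and stood at nearly the same level. Over the 12 libraries, Mir-221-P1_3p averaged 8437 ± 1548 normalized reads (SD, n = 12), rank 72 of 513 arms. Mir-221-P2_3p averaged 8149 ± 1463, rank 74. These neighbours in the order did not differ beyond their spread, as each mean lay within 1 SD of the other. The passenger Mir-221-P1_5p* averaged 1198 ± 183, rank 155, and Mir-221-P2_5p* averaged 631 ± 84.4, rank 195. Here the ranges did not meet. The lowest Mir-221-P2_3p value, 6375, lay above the highest Mir-221-P1_5p* value, 1459, and the lowest Mir-221-P1_5p* value, 794, lay above the highest Mir-221-P2_5p* value, 753. No value of the 4 arms was listed at 0, and all 4 entered the test between lineages. Together the arms held 0.220% ± 0.0275 of the values of a library (SD, n = 12).

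**Figure D1:**
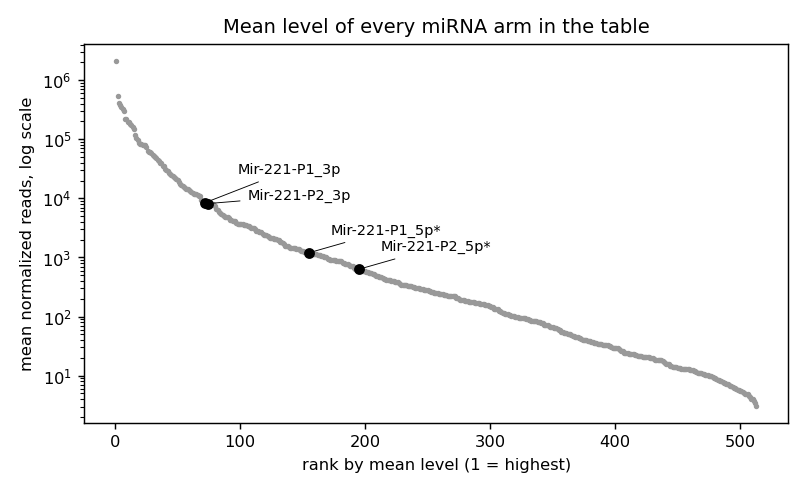
Mean normalized reads over 12 libraries (log scale) against rank for every arm of the table, 1 grey point per arm, with the 4 members in black. The 3p guides sit together at ranks 72 and 74, above the 5p arms at ranks 155 and 195.

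The spread between libraries was several times the counting error of the reads. Mir-221-P1_3p rested on 5734 to 11752 reads per library, and Mir-221-P2_5p*, the thinnest member, on 490 to 831. The coefficient of variation over the 12 libraries was 18.4% for Mir-221-P1_3p, where counting alone would give 1.10%. It was 17.9% against 1.12% for Mir-221-P2_3p, 15.3% against 2.91% for Mir-221-P1_5p* and 13.4% against 4.00% for Mir-221-P2_5p*. Among the 208 arms with a mean of at least 500 normalized reads, the median coefficient of variation was 16.1%, and the members lay on both sides of it. PCR copies could not be told from separate molecules, so the counting figures cover counting error only.

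No arm of the pair passed the test between the lineages, and all 4 mean levels were slightly lower in the exercised lineage. Mir-221-P1_3p, the Mir-221 guide, had a lowest value of 5305, a median of 8256 and a highest of 9480 normalized reads in the exercised lineage. In the sedentary lineage these were 6418, 9065 and 10652. The ranges overlapped over most of their length, with F2_exercised replicate 1 and F2_sedentary replicate 5 low and F2_sedentary replicates 1 and 6 high. The mean was 7908 ± 1542 for exercised and 8966 ± 1492 for sedentary libraries (SD, n = 6 each), and the log2 fold, exercised minus sedentary, was -0.19 (SE 0.15, limma adjusted p = 0.638, exact permutation p = 0.284). Its 95% confidence interval ran from 0.697-fold to 1.10-fold. In a bulk tissue, fewer cells that hold the miRNA and less of it per cell cannot be told apart.

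Mir-221-P2_3p, the Mir-222 guide with the same seed, ran from 6375 through a median of 7764 to 8963 in the exercised lineage and from 6864 through 8201 to 11628 in the sedentary lineage. F2_sedentary replicate 6 stood above every other library, and without it the exercised and sedentary ranges were 6375 to 8963 and 6864 to 9530. The means were 7662 ± 1040 and 8636 ± 1748, with a log2 fold of -0.16 (SE 0.13, limma adjusted p = 0.648, exact permutation p = 0.281).

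The passenger arms showed the same small differences. Mir-221-P1_5p* ran from 794 through 1209 to 1308 in the exercised and from 1015 through 1217 to 1459 in the sedentary lineage, so the medians were nearly equal. F2_exercised replicate 1 held the lowest value. The log2 fold was -0.15 (SE 0.13, limma adjusted p = 0.669, exact permutation p = 0.325). Mir-221-P2_5p* ran from 453 through 645 to 683 and from 567 through 641 to 753, and here the exercised median was the higher. The mean of the exercised lineage was lowered by F2_exercised replicates 1 and 2, at 453 and 518. The log2 fold was -0.13 (SE 0.12, limma adjusted p = 0.669, exact permutation p = 0.292).

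**Figure D2:**
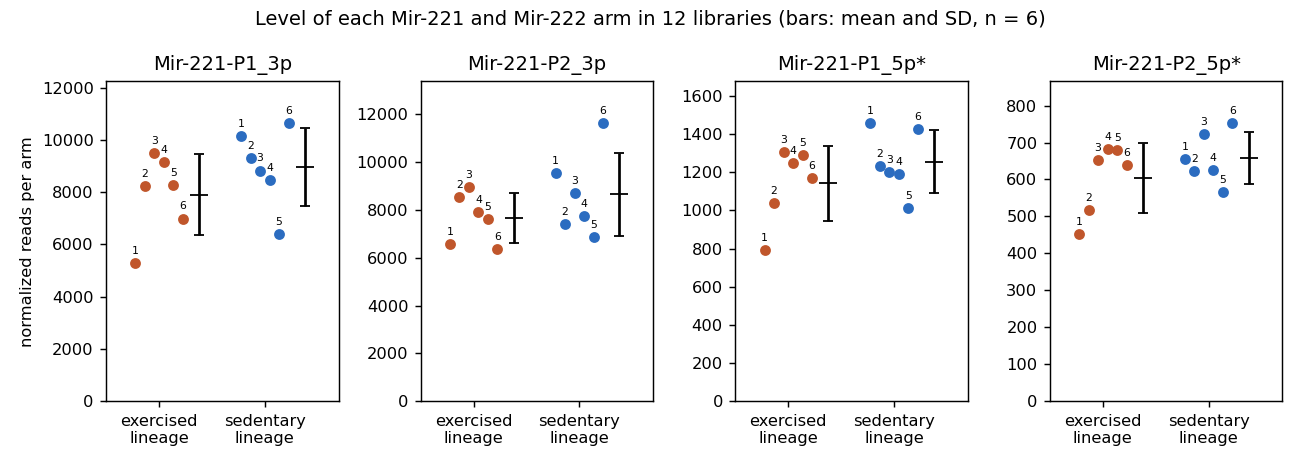
Normalized reads of each arm (vertical axes from 0) in the 6 exercised and 6 sedentary lineage libraries, numbered by mouse, with the mean and SD of each lineage beside the points. The lineages overlap for every arm, and F2_exercised replicate 1 is lowest for 3 of the 4 arms.

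Read against all arms, these counts do not set the pair apart. Of 474 arms tested with limma, 0 were called at an adjusted p below 0.05 (0.00%), and of the 4 members 0 were called. An unadjusted limma p below 0.05 was found for 34 arms (7.17%), and an exact permutation p below 0.05 for 38 arms (8.02%), with no member among either. A log2 fold below 0 was found for 4 of 4 members and for 238 of 474 arms (50.2%), and the members varied together across libraries (r from 0.567 to 0.912), so they are not separate observations. The median fold of all arms was -0.0013, with quartiles of -0.18 and 0.14. Mir-221-P1_3p lay just below the lower quartile and the other members between the quartiles. None of the 474 tested arms separated the lineages without overlap (0.00%).

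The size of the folds rested in part on single libraries. Without F2_exercised replicate 1 the folds were -0.08 for Mir-221-P1_3p, -0.04 for Mir-221-P1_5p* and -0.05 for Mir-221-P2_5p*. For Mir-221-P2_3p the fold nearest 0 was -0.07, without F2_sedentary replicate 6. With each library left out in turn, every fold stayed below 0 and no member was called. When libraries were scaled to equal totals the folds were -0.10, -0.06, -0.07 and -0.05 for Mir-221-P1_3p, Mir-221-P1_5p*, Mir-221-P2_3p and Mir-221-P2_5p*, while the median fold of all tested arms moved from -0.0013 to 0.0845. Without the R31 libraries the fold of Mir-221-P2_5p* was 0.025, above 0. That arm stood at 541 ± 101 in R31 and 667 ± 24.9 in R41 within the exercised lineage, and at 667 ± 51.6 in S11 and 649 ± 95.3 in S41 (SD, n = 3 each). Without the R41 libraries the fold was -0.29 for Mir-221-P2_5p* (exact permutation p = 0.0714) and -0.28 for Mir-221-P1_5p*. Each stem lies within 1 lineage, so no comparison within a stem was possible.

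**Figure D3:**
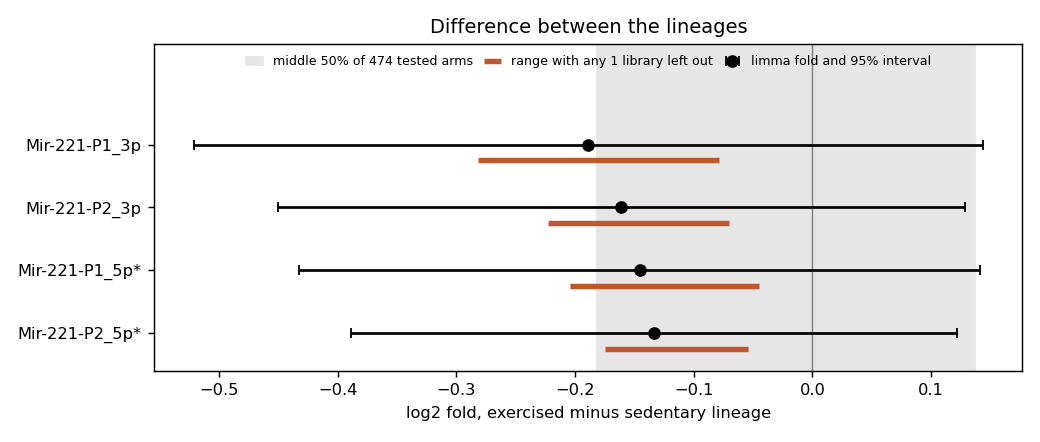
Log2 fold (exercised minus sedentary lineage) of each arm with its 95% confidence interval (black), the range with any 1 library left out (orange) and the range between the quartiles of all 474 tested arms (grey band). All intervals cross 0, and all points lie below it.

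The balance between the genes and between the arms was close in both lineages. The ratio of Mir-221-P1_3p to Mir-221-P2_3p was 1.04 ± 0.119 over 12 libraries (SD), from 0.809 in F2_exercised replicate 1 to 1.26 in F2_sedentary replicate 2, and above 1 in 8 of 12. It was 1.03 ± 0.125 among exercised and 1.05 ± 0.125 among sedentary libraries (SD, n = 6 each). The passenger arms were less even. Mir-221-P1_5p* exceeded Mir-221-P2_5p* in 12 of 12 libraries, by 1.90 ± 0.147 times, with 1.89 ± 0.103 among exercised and 1.91 ± 0.192 among sedentary libraries. Whether adapters joined these arms equally well during library preparation was not tested.

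The 3p arm was the dominant one in every library for both genes. Mir-221-P1 had 7.03 ± 0.580 3p reads per 5p read (SD, n = 12), with 6.93 ± 0.718 among exercised and 7.12 ± 0.449 among sedentary libraries. Mir-221-P2 had 13.0 ± 1.93, with 12.9 ± 2.42 and 13.0 ± 1.54. The lowest Mir-221-P2 ratio, 9.99, lay above the highest Mir-221-P1 ratio, 7.95, so the ratio of Mir-222 exceeded that of Mir-221 in all 12 mice. Across 155 genes with both arms tested, the dominant arm exceeded the minor one by a median of 12.2 times (quartiles 2.90 and 63.7). Of these genes, 64 had a smaller ratio than Mir-221-P1 and 79 a smaller one than Mir-221-P2.

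The arms varied together over the 12 libraries, most closely the arms of Mir-221 itself. Between Mir-221-P1_3p and Mir-221-P1_5p* Pearson's r was 0.912 (permutation p = 0.00013, 0.00078 adjusted over 6 pairs) and Spearman's rho 0.909 (permutation p = 0.00015, adjusted 0.0009). Of 473 other arms, the passenger arm was the most alike to its guide. Between both guides r was 0.812 (permutation p = 0.0015, adjusted 0.003) and rho 0.818 (permutation p = 0.00181, adjusted 0.00543), and Mir-221-P2_3p ranked as the 6th most alike arm to Mir-221-P1_3p. Without the 2 libraries farthest from the median of Mir-221-P1_3p, F2_exercised replicate 1 and F2_sedentary replicate 5, these r values were 0.721 and 0.845. The arms of Mir-222 were the least alike pair, with r = 0.567 (permutation p = 0.0571, adjusted 0.0571) and rho = 0.615 (permutation p = 0.0364, adjusted 0.0364). Without F2_exercised replicate 6 and F2_sedentary replicate 6, their r was 0.553. Of 473 other arms, Mir-221-P2_5p* ranked only 54th in likeness to Mir-221-P2_3p.

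The other 3 pairs were tested the same way. Both passenger arms had r = 0.888 (permutation p = 0.00036, adjusted 0.00108) and rho = 0.755 (permutation p = 0.00597, adjusted 0.0117), and r = 0.705 without F2_exercised replicate 1 and F2_sedentary replicate 5. Mir-221-P1_3p and Mir-221-P2_5p* had r = 0.779 (permutation p = 0.00415, adjusted 0.00622) and rho = 0.671 (permutation p = 0.0205, adjusted 0.0246). Their r was only 0.428 without F2_exercised replicate 1 and F2_sedentary replicate 5. Leaving out the 2 libraries farthest from the median narrows the range of an arm, which can lower r by itself. Whether the relation rests on these libraries therefore cannot be told from that drop. Mir-221-P1_5p* and Mir-221-P2_3p had r = 0.668 (permutation p = 0.0194, adjusted 0.0232) and rho = 0.741 (permutation p = 0.00783, adjusted 0.0117), and r = 0.563 without the same libraries, F2_exercised replicate 1 and F2_sedentary replicate 5. In likeness among 473 other arms, Mir-221-P2_5p* ranked 14th for Mir-221-P1_3p and 3rd for Mir-221-P1_5p*, for which Mir-221-P2_3p ranked 44th. All values of a library share 1 size factor, so the pairs were also compared with each library scaled to the same total. On that scale r was 0.815 for the arms of Mir-221 (permutation p = 0.00159, adjusted 0.00954), 0.672 for the guides (permutation p = 0.0169, adjusted 0.0479) and 0.646 for the passenger arms (permutation p = 0.024, adjusted 0.0479). The remaining pairs had r of 0.461, 0.440 and 0.228, with adjusted permutation p of 0.183, 0.183 and 0.477. With equal totals Mir-221-P1_3p ranked 12th among the arms alike to Mir-221-P2_3p, against 4th before. In the other direction Mir-221-P2_3p (r = 0.672) stood above the 3rd most alike arm to Mir-221-P1_3p, Mir-191 5p (0.657). Within the lineages r between the guides was 0.818 among exercised and 0.808 among sedentary libraries (n = 6 each). It was 0.276 and 0.871 for the arms of Mir-222, and 0.486 and 0.849 for Mir-221-P1_5p* with Mir-221-P2_3p, differences that were not tested.

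**Figure D4:**
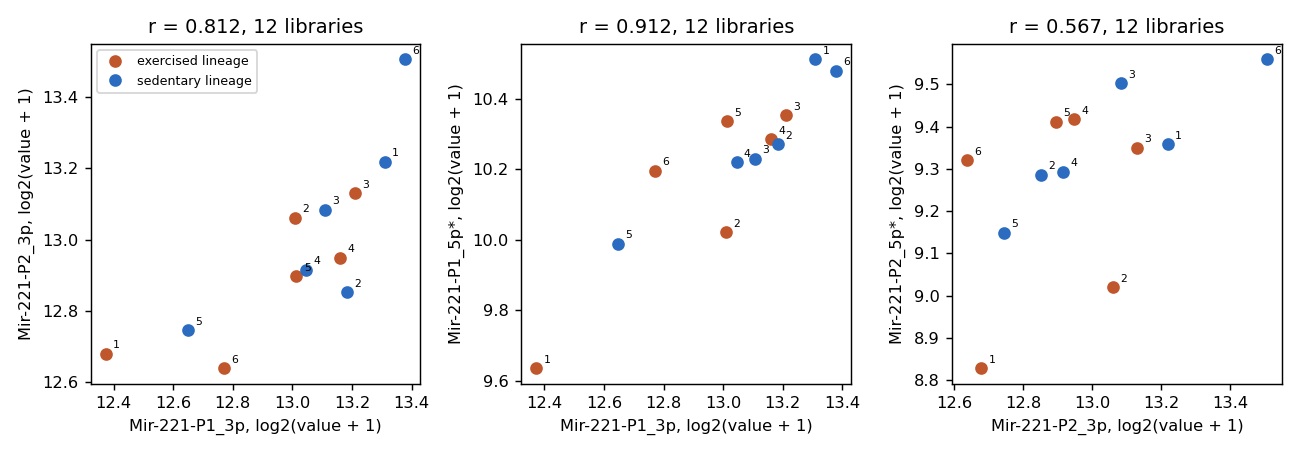
Log2(value + 1) of pairs of arms over 12 libraries, 1 point per library numbered by mouse, exercised lineage in orange and sedentary lineage in blue. The guides (left, r = 0.812) and the arms of Mir-221 (middle, r = 0.912) lie near a line, and the arms of Mir-222 (right, r = 0.567) scatter more.

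Some arms from other loci correlated with the guides as strongly as the guides did with each other. After its own passenger arm, the arms most alike to Mir-221-P1_3p were Mir-191 5p (r = 0.853), the let-7 row Let-7-P3_5p/7-P7_5p (0.817), Mir-10-P3b_5p/10-P3c_5p (0.815) and Mir-7-P3_5p (0.813). Those most alike to Mir-221-P2_3p were Mir-671_3p* (0.850), Mir-26-P1_5p/26-P2_5p (0.837), Mir-346_5p (0.819), Mir-221-P1_3p itself and Mir-154-P22_3p (0.802), all over 12 libraries and given as a description. On values scaled to equal totals r between the guides was 0.672. The outside arms named for Mir-221-P1_3p all lay below it: Mir-191 5p (0.657), Let-7-P3_5p/7-P7_5p (0.617), Mir-7-P3_5p (0.559) and Mir-10-P3b_5p/10-P3c_5p (0.284). Those named for Mir-221-P2_3p all lay above it: Mir-671_3p* (0.811), Mir-26-P1_5p/26-P2_5p (0.784), Mir-346_5p (0.749) and Mir-154-P22_3p (0.719). Like the guides, these outside arms all had a log2 fold below 0 between the lineages, from -0.52 (Mir-7-P3_5p) to -0.09 (Mir-10-P3b_5p/10-P3c_5p). The part of that shared direction in their r was not tested. The median r over the 473 other arms was -0.055 for Mir-221-P1_3p and -0.042 for Mir-221-P2_3p. The lowest r belonged to Mir-134_5p (-0.878) and Mir-181-P2a_3p* (-0.869).

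**Figure D5:**
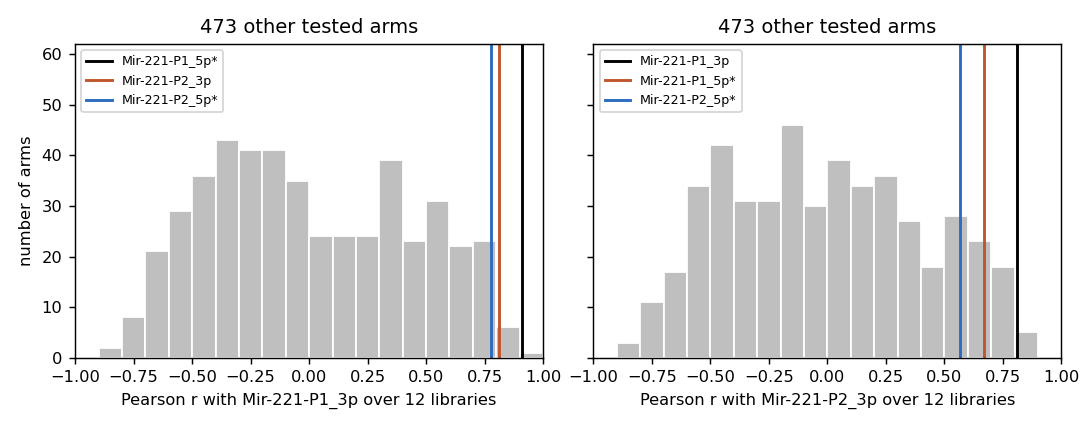
Number of arms (vertical axis) by Pearson r with Mir-221-P1_3p (left) and Mir-221-P2_3p (right) over 12 libraries, for the 473 other tested arms, with the other members as vertical lines. The members lie in the upper part of both distributions, at 0.779 to 0.912 on the left and 0.567 to 0.812 on the right.

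Over whole marker lists the median r with the guides lay between -0.301 and 0.187. The median r of 13 vascular arms (Mir-126, Mir-143, Mir-145, Mir-139, Mir-199 and Mir-214), markers of the vessel cells in which the pair is best known, was 0.041 with Mir-221-P1_3p and -0.073 with Mir-221-P2_3p. Single vascular arms ranged from -0.560 (Mir-126 5p) to 0.558 (Mir-139_5p) with Mir-221-P1_3p. The 16 neuronal arms had medians of -0.169 and -0.126. Among them Mir-9 5p stood at 0.695 with Mir-221-P1_3p and Mir-128 3p at 0.777 with Mir-221-P2_3p. Mir-132-P2_3p, the 3p arm of Mir-212, stood at -0.791 and -0.866, but Mir-132-P2_5p of the same hairpin at 0.698 with Mir-221-P2_3p. Neither arm carries an asterisk. These arms, like those with the lowest r over all arms, were picked as extremes after their values were seen. Choroid plexus arms had medians of -0.194 and -0.110, oligodendrocyte arms (5) -0.157 and -0.301, microglia and leukocyte arms (8) -0.138 and -0.032, and erythroid arms (5) 0.187 and 0.029. Between the lineages 6 of 6 choroid plexus arms had a fold below 0, as the pair did (median -0.23, 0 called), and 4 of 5 erythroid arms (median -0.27, 0 called). So did 9 of 13 vascular arms (median -0.13, 0 called). Above 0 lay 11 of 16 neuronal arms (median 0.09), 5 of 8 microglia and leukocyte arms and 3 of 5 oligodendrocyte arms, with 0 called. Of all 474 tested arms, 238 (50.2%) lay below 0. The part of these cell types in the folds of the pair was not tested. The 6 choroid plexus arms come from Mir-1298, Mir-204 and Mir-448 alone, so arms that share a hairpin are not separate observations. Mir-1298 and Mir-448 also belong to the list of X-linked miRNAs below. F2_exercised replicate 1, low for Mir-221, was the library with the highest choroid plexus share, and the part of that tissue in its low values was not tested.

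MiRNAs listed for related roles were likewise not called between the lineages. A list made for growth factor and ERK signalling held 10 tested arms of Mir-132, Mir-21, Mir-155 and Mir-146. How far each belongs to that signalling was not checked. Of these arms, 5 had a fold above 0 and 5 below (median 0.03), and 0 were called in either direction by limma. Of 31 arms of growth and cell cycle miRNAs, 21 lay above 0 and 10 below (median 0.08) and 0 were called. Examples are Mir-15-P2a_5p/15-P2b_5p, which represses cyclins, at 5681 ± 1042 against 4820 ± 654 normalized reads (log2 fold 0.23) and Mir-92-P3_3p at 4191 ± 247 against 4296 ± 183 (-0.04). Of 22 arms of vascular miRNAs and their partners Mir-23, Mir-24 and Mir-27, 8 lay above 0 and 14 below (median -0.07) and 0 were called. Mir-27 3p, known from angiogenesis, stood at 105688 ± 10216 against 102750 ± 12762 (0.04).

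Other X-linked miRNAs, taken from a chosen list of 18 families, were divided in direction. The list was not checked for completeness. The list matched 31 rows from 15 families, and 28 of these rows were tested. Of the 28 tested arms, 13 lay above 0 and 15 below (median -0.03) and 0 were called. For 14 of the 15 families with rows a RefSeq gene of the same number was found, and all 14 lie on the X chromosome. Mir-188-P2_5p stood at 14232 ± 955 against 14952 ± 992 normalized reads (log2 fold -0.07), and the 3p arm of Mir-361 at 3470 ± 1070 against 3969 ± 585 (-0.26). The medians of these lists lie beside a median of -0.0013 over all 474 tested arms, of which 236 were above 0 and 238 below.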

How the data were processed

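Small RNA from 12 hippocampi was sequenced, and the deposited values are a signal: counted reads of each arm over a library-wide size factor. Bowtie 1.3.0, DESeq2 and mm10 are named per the submitters' processing notes. How reads were trimmed, filtered and placed when they match several loci is not stated there. Every value was a whole multiple (within 0.01) of 1 step per library, from which depth was read. As the smallest value stood for 2 to 6 reads, no count model was fitted. Samples were grouped by title. Limma 3.58.1 in R 4.3.3 (trend, two-sided, Benjamini-Hochberg) was run on log2(value + 1) for the 474 of 513 arms with a mean of at least 10, with 6 libraries in each lineage. Folds are on that scale. Exact permutation used all assignments of libraries to lineages, 924 with all 12 libraries and fewer, so coarser in p, with libraries left out. Correlations used 100000 permutations. Both were two-sided. The fit was tested on simulated data. Named were all Mir-221 rows, up to 3 abundant arms per list and the 5 arms most correlated with each guide; only those list arms on which a statement turns are printed. Members and lists were chosen with earlier results of these data known. Library pairs within a lineage differed beyond sampling noise (chi-square per degree of freedom at least 146), so none was counted as a duplicate. Labels give 1 mouse per library. Sequences came from RefSeq (GRCm38.p6, 2 of 2 genes matched), loci from GENCODE.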

Additional observations from a re-analysis of the deposited data

How the results depend on the processing

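The 4 folds were recomputed under 27 other settings of scaling, filter, pseudocount, test, block and libraries. This gave 108 values, 107 below 0 and 1 above, the fold of 0.025 for Mir-221-P2_5p* without the R31 libraries. With 3 exercised libraries left there, the cause was not tested. The filter, trend and block settings cannot change a fold in this balanced design and returned the main folds. Their signs are therefore no separate checks. No setting called a member (lowest limma adjusted p 0.514) or any arm. The number of arms at an unadjusted p below 0.05, 34 at first, was 57 under upper-quartile scaling, 18 without F2_exercised replicate 6, 16 without the S11 and 19 without the S41 libraries. Mouse numbers are shared between the lineages but do not pair the mice (correlations of same-numbered libraries -0.17 to 0.15, 2 of 12 libraries most alike to their own number). With mouse number as a replicate block the fold of Mir-221-P1_3p stayed -0.19 (limma adjusted p = 0.765), 0 arms were called and 16 had an unadjusted p below 0.05. With library weights the folds of Mir-221-P1_3p and Mir-221-P1_5p* were -0.07 and -0.03. TMM factors were computed from their published formula. The correlations on equal totals were added after the data were seen. Counting error was well below the spread between libraries, which holds differences between mice and library preparation alike.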
